A study of Paeonia lactiflora with 8 samples.

Results

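The miR169 family of the herbaceous peony Paeonia lactiflora was followed across root, leaf, flower and fruit in small RNA libraries. Every deposited miRNA named miR169 or MIR169, whatever the species in its name, was taken, which gave 7 different sequences out of the 270 in the table. The material was bulk tissue, for which the labels name no genotype or treatment, in 8 libraries: 2 each of root, leaf and flower from the blossom period, and 2 of fruit from the young fruit period, so organ and stage cannot be told apart for fruit. The series was set up around organs with unlike contents of paeoniflorin, a medicinal monoterpene glucoside of peony. The 2 libraries of an organ are called biological replicates in the labels, which do not say whether plants were pooled. A table of miRNAs holds no defining transcripts of these organs, so the tissue labels were not checked against markers.

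miR169 is an old plant miRNA family that guides the cleavage of messenger RNAs of NF-YA, the subunit that gives the CCAAT-box binding complex NF-Y its contact with DNA. In Arabidopsis the family falls when nitrogen or phosphate is short, and its members act on root branching and on the response to drought. In petunia and snapdragon, miR169 genes keep the genes of stamens and carpels out of the outer whorls of the flower. NF-YA messenger RNAs and cleavage sites were not analysed here.

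The 7 sequences fell into 3 kinds, and 5 of them are shown as examples of the kinds, with bases 2 to 8, the seed, in capitals and T for U. The first 3 are forms of the miRNA strand, and their shared seed is what sets them apart from the other sequences shown.
nta-miR169b: cAGCCAAGgatgacttgccga
sbi-miR169e: tAGCCAAGgatgacttgccgg
ata-miR169a-5p_R-1: tAGCCAAGgatgatttgcctgt
ata-miR169b-3p_L-1R-1_1ss18CT: gGGCAAGTcatcctggttacc
ath-MIR169h-p5_2ss4CG17AT: tGAGATGAagaatgagta
Positions are counted from 1 at the 5′ end of nta-miR169b. The 21-nt sbi-miR169e differed from it by C1T and A21G, so the pair matched at 19 of 21 positions. The 22-nt ata-miR169a-5p_R-1 differed from nta-miR169b by C1T, C14T, G20T and A21G. The 18-nt cca-miR169b_R-3, was identical to the first 18 bases of sbi-miR169e. These 4 forms shared the seed and a run of 12 bases, AGCCAAGGATGA, and neither was found in any of the 263 sequences outside the family.

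The first base separates nta-miR169b, which begins with C, from the other 3 forms of the miRNA strand, which begin with T. In Arabidopsis the first base bears on which Argonaute protein takes up a small RNA, with U favouring AGO1 and C favouring AGO5. Over all 270 sequences, 40 began with C and 144 with T.

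The fifth sequence, ata-miR169b-3p_L-1R-1_1ss18CT, comes from the opposite arm of the hairpin. Set against nta-miR169b without gaps, it faced it at 20 positions, of which 14 were Watson-Crick pairs and 1 was a G-U pair, with 1 base unpaired at each 3′ end. The remaining ath-MIR169h-p5_2ss4CG17AT and aly-MIR169d-p5_2ss6TG17TA were 18 nt long and carry names of newly observed arms. Their longest runs of bases in common with nta-miR169b were 5 and 3. They belong to the family by name and do not hold the seed, and 56 of the 270 sequences in the table were likewise 18 nt long. No sequence was placed on a genome here.

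Values are the authors' normalized read counts. Low values fell on steps, from 0.432 in flower 1 to 2.54 in root 2, that were taken as the value of 1 read. Divided by these steps, the listed miRNAs held between 73898 reads, in root 2, and 724509, in flower 2, and a value of 3 reads ran from 1.3 in flower 1 to 7.62 in root 2. Replicates of root were the least alike, with a Pearson's r of 0.692 across miRNAs against 0.861 to 0.915 in the other tissues. Sequences of 18 and 19 nt held 16% of the root 2 total and at most 1.93% of any other library. The 3-read floors and the steps cover counting error only.

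The family was a minor one. Its summed value averaged 65.4 over the 8 libraries, 0.0251% of the mean total, and ranked 42 of 107 family numbers. nta-miR169b ranked 92 and sbi-miR169e ranked 124 of the 270 sequences by mean. Among the 7 forms, 5 reached a value of 1 in at least 2 libraries and were tested. ata-miR169b-3p_L-1R-1_1ss18CT and cca-miR169b_R-3 were each seen in 1 library and were not tested.

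The most abundant form was nta-miR169b, the one that begins with C. The root libraries held 29.9 and 0, the leaf libraries 35.6 and 37.1, the flower libraries 59.2 and 88.9, and both fruit libraries 0. It was therefore present in both leaf and both flower libraries, in 1 of 2 root libraries, and in neither fruit library. The tissue means were 14.9 ± 21.1 in root, 36.4 ± 1.03 in leaf and 74.0 ± 21 in flower (SD, n = 2 each). The values stood for 21 reads in root 1, 34 and 50 reads in the leaf libraries and 137 and 120 reads in the flower libraries. In fruit, 3 reads would have had a value of 4.19 and 2.77, so the levels of leaf and flower were well above what those libraries could show. In root 2, 3 reads would have been 7.62, so a level like the 29.9 of root 1 would have been visible there.

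The T-starting sbi-miR169e was the only form found in all 6 libraries outside fruit. The root libraries held 10.9 and 7.12 of it, the leaf libraries 10.5 and 19.5, the flower libraries 35.6 and 30.4, and both fruit libraries 0. On the deposited scale flower was above root and leaf without overlap, while root and leaf overlapped. Its means were 9.01 ± 2.68 in root, 15.0 ± 6.4 in leaf and 33.0 ± 3.69 in flower (SD, n = 2 each). As a share of the summed value of each library, in the ppm set out below, flower and leaf overlapped. The leaf libraries then held 39.2 and 79.4 of sbi-miR169e and the flower libraries 158.6 and 56.6. Flower stayed above root, at 43.1 and 37.9 on that scale. The 7.12 of root 2 stood for 2.8 reads and lay under the 3-read value of that library.

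Another T-starting form of the miRNA strand, ata-miR169a-5p_R-1, stood at 9.48 and 2.03 in the root libraries, 11.5 and 12.1 in the leaf libraries, 14.4 and 0 in the flower libraries, and 0 in both fruit libraries. The flower libraries disagreed on it: flower 1 held the highest value of the 8 and flower 2, the deepest library, held none. The short cca-miR169b_R-3 appeared only in root 2, at 2.03. In that library it and ata-miR169a-5p_R-1 each stood for 0.8 reads, less than 1 read and under the 3-read value of 7.62. The reads implied for nta-miR169b were whole in 5 of the 5 libraries that held it, but those of sbi-miR169e were whole in 2 of 6 and those of ata-miR169a-5p_R-1 in 1 of 5. Such fractions arise when reads are divided among entries, so these near-identical T-starting forms may not be separate measurements.

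**Figure D1:**
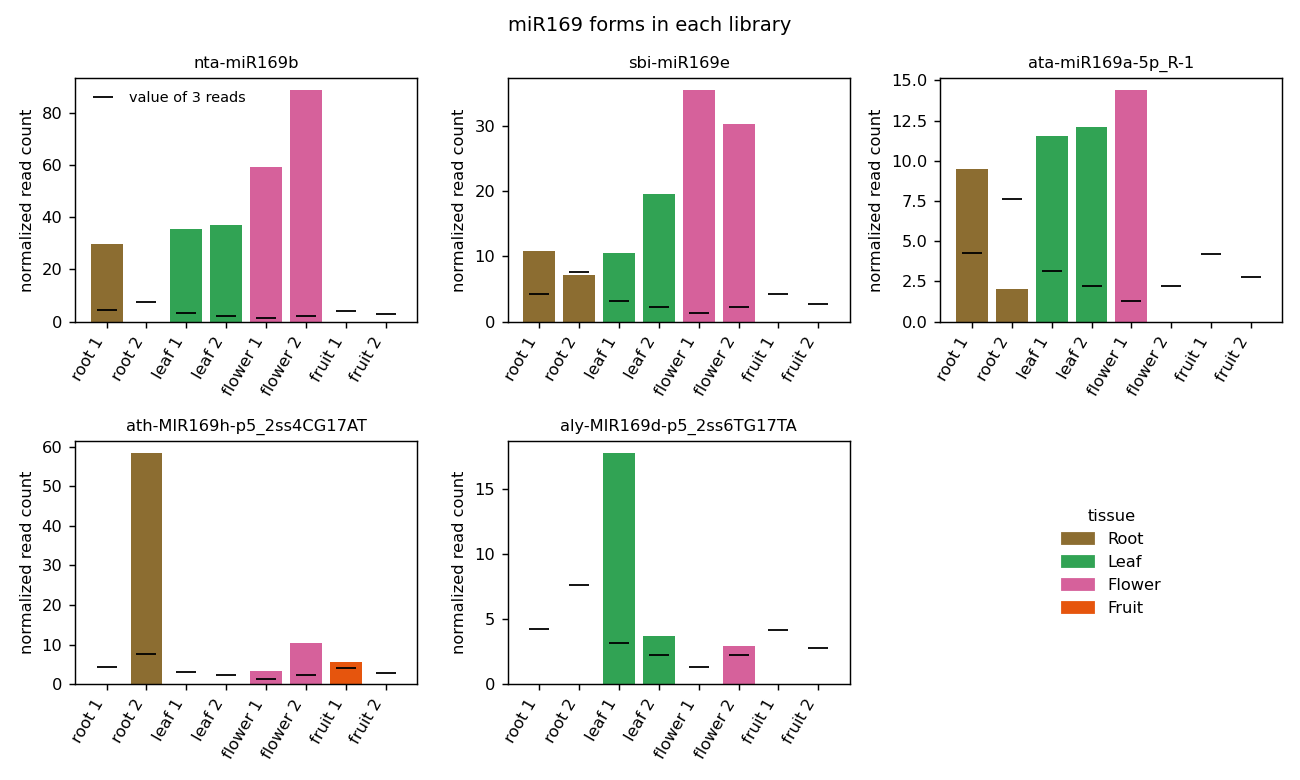
Normalized read count (y axis) of the 5 tested miR169 forms in each of the 8 libraries (x axis), 1 bar a library, coloured by tissue, with a dash at the value that 3 reads would have. The 3 forms of the miRNA strand stand above their dashes in both leaf libraries and are at 0 in both fruit libraries, while the 58.4 of ath-MIR169h-p5_2ss4CG17AT stands in root 2 alone.

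The passenger strand was seen once. ata-miR169b-3p_L-1R-1_1ss18CT had a value of 4.32, or 10 reads, in flower 1, and was listed at 0 in the other 7 libraries. In flower 1 nta-miR169b stood at 59.2, or 137 reads. Flower 1 was the library with the lowest value per read, and 3 reads would have been 2.22 in flower 2, so a level like that of flower 1 would have been visible there. In root 2, 3 reads would have been 7.62, above that level, and in root 1 and fruit 1 they would have been 4.27 and 4.19, close to it. An absence from root 2, root 1 or fruit 1 is therefore not shown at that level.

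The 18-nt forms followed other libraries. ath-MIR169h-p5_2ss4CG17AT stood at 0 and 58.4 in the root libraries, 0 in both leaf libraries, 3.46 and 10.4 in the flower libraries, and 5.58 and 0 in the fruit libraries. It was the only member with a value in fruit, 4 reads in fruit 1, and its high value was in root 2, the library rich in 18- and 19-nt sequences. The part of that richness in its value was not tested. aly-MIR169d-p5_2ss6TG17TA stood at 0 in both root libraries, 17.8 and 3.71 in the leaf libraries, 0 and 2.96 in the flower libraries, and 0 in both fruit libraries. The 3.71 of leaf 2 was below the 3-read values of root 1, root 2 and fruit 1, so an absence from those libraries was not detectable at the level of leaf 2.

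Summed over the 7 forms, the family came to 50.3 and 69.6 in the root libraries, 75.5 and 72.5 in the leaf libraries, 117 and 132.6 in the flower libraries, and 5.58 and 0 in the fruit libraries. The sum hides a change of make-up in root. The 18-nt forms were 0% of the family in root 1 and 86.9% in root 2, beside 23.6% and 5.12% in the leaf libraries, 2.96% and 10.1% in the flower libraries, and all of the little that fruit 1 held. The 4 forms with the seed alone summed to 50.3 and 11.2 in the root libraries, 57.7 and 68.8 in the leaf libraries, 109 and 119 in the flower libraries, and 0 in both fruit libraries.

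**Figure D2:**
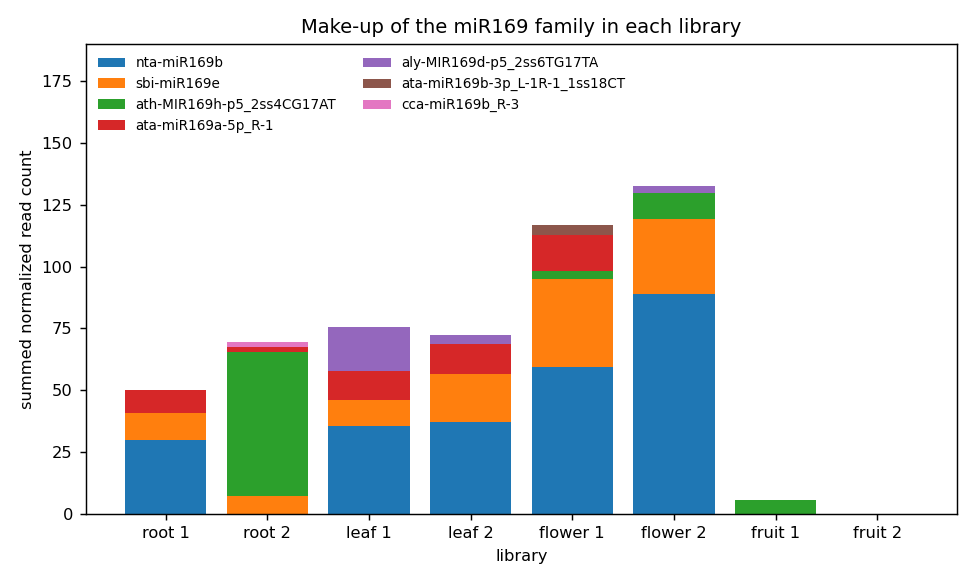
Normalized read counts of all 7 miR169 forms stacked for each library (y axis, summed value; x axis, library). nta-miR169b is the largest part in root 1, leaf and flower, and ath-MIR169h-p5_2ss4CG17AT in root 2, where 86.9% of the sum is in 18-nt forms.

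Within the forms that hold the seed, nta-miR169b was the largest part in root 1 and in every leaf and flower library. It made up 59.4% of them in root 1, 61.8% and 54% in leaf and 54.2% and 74.5% in flower. sbi-miR169e made up 21.7% in root 1, 18.2% and 28.4% in leaf and 32.6% and 25.5% in flower. Root 2 again stood apart, with 0% and 63.6%, on a sum of 11.2 that stood for fewer than 5 reads.

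The place of flower above leaf depended on the scale. As a share of the summed value of each library, in parts per 1000000 (ppm), the forms with the seed were 198 and 59.5 ppm in the root libraries, 216 and 279 ppm in the leaf libraries, 487 and 222 ppm in the flower libraries, and 0 in both fruit libraries. On that scale the leaf libraries lay on either side of flower 2, whereas on the deposited scale both leaf libraries were below both flower libraries. The summed value of flower 2 was 536567, against 224292 in flower 1. Fruit was at 0 on either scale, where 3 reads would have been 23.4 and 14.9 ppm.

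**Figure D3:**
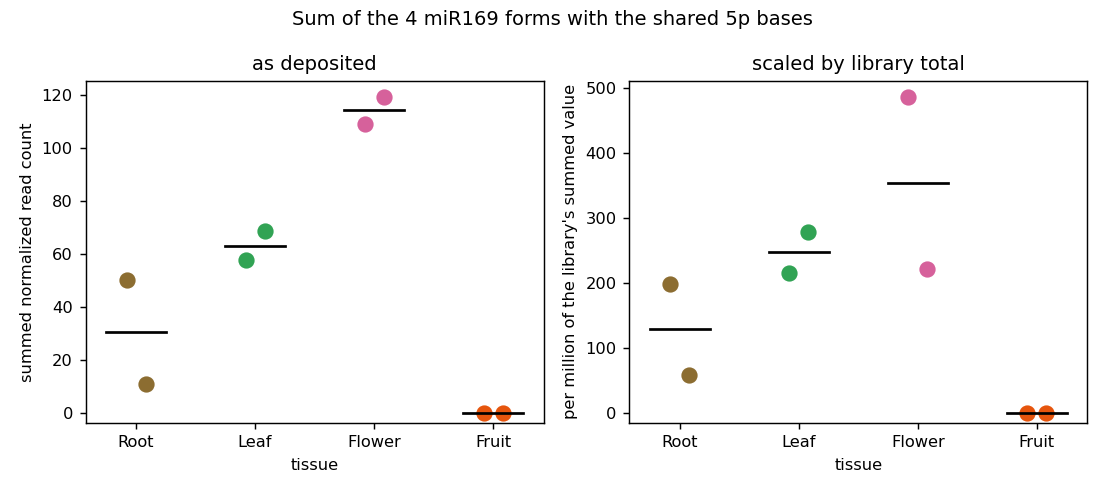
Sum of the 4 seed-bearing miR169 forms in the 2 libraries (points) and their mean (line) in each tissue, as deposited (left, normalized read count) and in ppm of the library's summed value (right). Leaf, at 57.7 and 68.8, is below flower, at 109 and 119, without overlap on the left, and on the right leaf, at 216 and 279, overlaps flower, at 487 and 222.

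None of the 5 tested forms was called for a tissue difference at an adjusted p under 0.05, over the 4 tissues or in any of the 6 pairs, and 8 of their 30 differences in the pairs had an unadjusted p under 0.05, beside 238 of 1296, or 18.4%, over all miRNAs (limma). In the F test over the 4 tissues limma called 4.63% of the 216 miRNAs tested and 0 of the 5, with 3 of the 5 at an unadjusted p under 0.05, as were 31% of all. The adjusted p was 0.0681 for sbi-miR169e, 0.129 for nta-miR169b, 0.144 for aly-MIR169d-p5_2ss6TG17TA, 0.382 for ata-miR169a-5p_R-1 and 0.591 for ath-MIR169h-p5_2ss4CG17AT (limma). Without root 1 or without root 2, limma called nta-miR169b and sbi-miR169e, with adjusted p of 0.0217 and 0.0219 without root 1 and 0.0204 and 0.0247 without root 2. In those fits, which take the single remaining root library to vary like the other tissues, 53 and 43 of 208 miRNAs were called, or 25.5% and 20.7%.

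The lowest adjusted p of the family came from flower against fruit. sbi-miR169e, at 35.6 and 30.4 in the flower libraries and 0 in both fruit libraries, reached an adjusted p of 0.0569, and nta-miR169b, at 59.2 and 88.9 in the flower libraries and 0 in both fruit libraries, reached 0.111 (limma, with 2.31% of miRNAs called). No fold is given, because both fruit libraries were listed at 0. ata-miR169a-5p_R-1 was above 0 in 1 flower library and had an adjusted p of 0.62 (limma). Leaving out root 1 or root 2 changed no flower or fruit value and so neither difference. Such fits moved only the shared estimate of the spread and the set of miRNAs tested. Over all alternatives the adjusted p ran from 0.0198 to 0.343 for sbi-miR169e and from 0.0198 to 0.443 for nta-miR169b.

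Leaf against fruit gave no call either. The adjusted p was 0.0776 for sbi-miR169e, 0.131 for nta-miR169b, 0.109 for aly-MIR169d-p5_2ss6TG17TA and 0.242 for ata-miR169a-5p_R-1, all above 0 in both leaf libraries and at 0 in both fruit libraries (limma, with 3.7% of miRNAs called). In the table as a whole, 12.5% of the tested miRNAs were above 0 in both leaf libraries and at 0 in both fruit libraries, and 26.9% were at 0 in both fruit libraries. In a fit of the 4 leaf and fruit libraries alone limma called 47 miRNAs, 27.8% of those tested there. Among them were 3 miR169 forms, nta-miR169b with an adjusted p of 0.00789, ata-miR169a-5p_R-1 with 0.00943 and sbi-miR169e with 0.0156 (limma). Being at 0 in both fruit libraries, these forms passed the filter of that fit only through the leaf libraries where they were high. The T-starting forms among them may also share reads, so the 3 calls are no separate support for a difference. The leaf and fruit values, and so these differences, were the same without root 1 or root 2, where only the estimate of the spread and the set tested moved.

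Root against fruit gave no call. sbi-miR169e, at 10.9 and 7.12 in the root libraries and 0 in both fruit libraries, had an adjusted p of 0.142, and nta-miR169b, at 29.9 and 0 in the root libraries and 0 in both fruit libraries, had 0.482 (limma, with 2.78% of miRNAs called). Without root 2, root 1 alone stood for root, and the log2 difference of nta-miR169b was 4.95, against 2.47 with both. That of sbi-miR169e was 3.02 without root 1 and 3.57 without root 2, against 3.30 with both. These sizes against a tissue at 0 depend on the added 1.

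Among root, leaf and flower, no difference of a tested form passed the test. The lowest adjusted p was that of the 18-nt aly-MIR169d-p5_2ss6TG17TA, at 0 in both root libraries and 17.8 and 3.71 in the leaf libraries (adjusted p = 0.0867, unadjusted p = 0.0136, limma). For nta-miR169b the log2 difference of leaf minus flower was -0.98 ± 1.67 (SE), with a 95% interval of 4.02 to either side (adjusted p = 0.799, limma, with 2.31% called). For sbi-miR169e it was -1.14 ± 0.97 (SE), with an interval from -3.48 to 1.20 (adjusted p = 0.588, limma). Root minus leaf was -2.75 ± 1.67 (SE) for nta-miR169b, with an interval from -6.77 to 1.27, and -0.64 ± 0.97 (SE) for sbi-miR169e, with an interval from -2.98 to 1.70, with adjusted p of 0.442 and 0.78 (limma, with 8.33% called). Root minus flower was -3.73 ± 1.67 (SE) for nta-miR169b and -1.78 ± 0.97 (SE) for sbi-miR169e, with adjusted p of 0.347 and 0.405 (limma, with 2.78% called). Intervals this wide leave room for differences of more than 2-fold in either direction between leaf and flower. Without root 1, root 2 alone stood for root. The log2 difference of nta-miR169b was then -5.22 in root minus leaf and -6.20 in root minus flower. That of ath-MIR169h-p5_2ss4CG17AT was 5.89 in root minus leaf. These sizes rest on root 2. Root 1 held 29.9 of nta-miR169b, against 35.6 and 37.1 in the leaf libraries, and 0 of ath-MIR169h-p5_2ss4CG17AT.

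**Figure D4:**
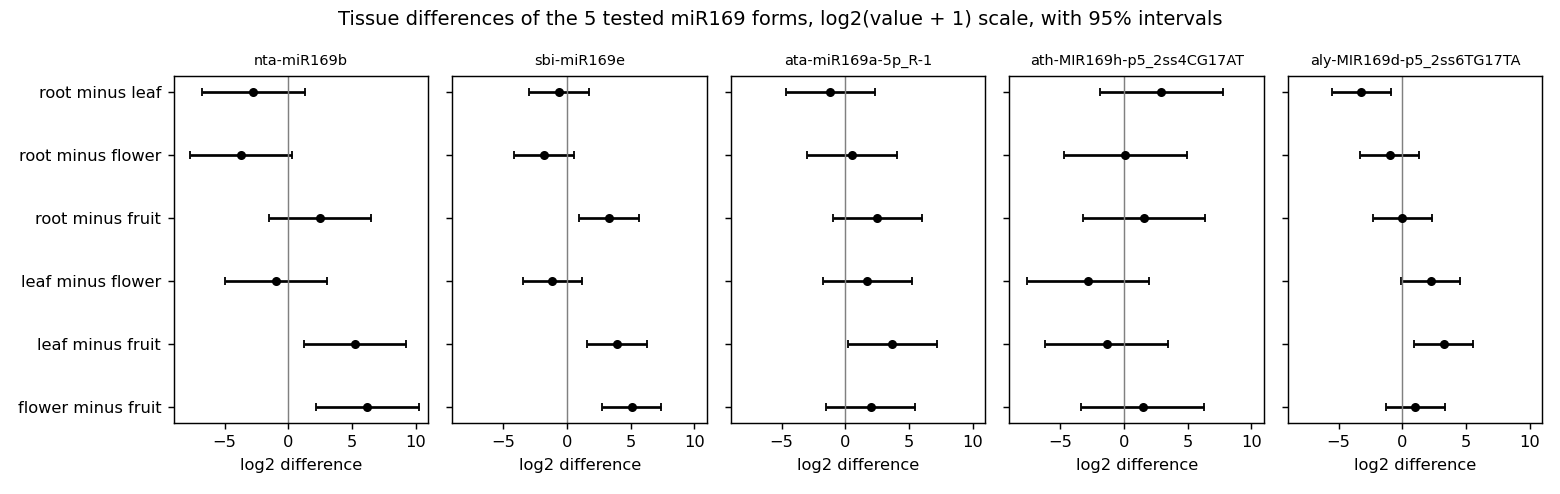
Log2 difference on the log2(value + 1) scale (x axis) of the 5 tested miR169 forms in each pair of tissues (y axis, first tissue minus second), with 95% intervals from the limma fit over 8 libraries. nta-miR169b and sbi-miR169e lie to the right of 0 in leaf minus fruit and flower minus fruit, with adjusted p between 0.0569 and 0.131, and sizes against a tissue at 0 depend on the added 1.

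As a list, the tested miR169 forms had a median log2 difference of 3.68 in leaf minus fruit, 1.97 in flower minus fruit and 2.47 in root minus fruit, beside 0.03, 0.39 and 0 over all 216 miRNAs. With most of these forms at 0 in fruit, the sizes follow the scale and the added value: the members' medians were 5.56, 3.01 and 3.45 with libraries scaled to a common total, and 1.13, 0.64 and 0.92 with a pseudocount of 10. The same medians were -1.19 in root minus leaf, -0.99 in root minus flower and -0.98 in leaf minus flower, beside 0 in each over all miRNAs. These comparisons share libraries, and the T-starting forms of the miRNA strand may share reads. Because bulk tissue was sequenced, fewer cells of a type and less miRNA per cell cannot be told apart.

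Other miRNAs tied to mineral nutrition, of the families miR395, miR399, miR826, miR827, miR2111 and miR5090, were present with 11 sequences, of which 9 were tested. miR395 targets enzymes and transporters of sulfate, miR399 the phosphate regulator PHO2, and miR827 proteins of the SPX group. Of the 9, 3 were at 0 in both fruit libraries, compared with 4 of the 5 miR169 forms and 26.9% of all. Limma called 1 of the 9 higher in leaf than in fruit and 1 lower in root than in leaf, and 0 in the other 4 pairs, where between 0 and 2 had an unadjusted p under 0.05. Their median log2 difference was 1.14 in leaf minus fruit and 1.41 in flower minus fruit.

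Families that act on flower development and phase change, miR156, miR157, miR159, miR164, miR167, miR172 and miR319, had 46 sequences, of which 37 were tested. miR156 and miR157 restrain SPL genes of the adult phase, miR172 restrains AP2-type genes of floral organ identity, and miR164 restrains NAC genes that set organ boundaries. Of the 37, 5 were at 0 in both fruit libraries. Limma called 2 higher and 1 lower in root than in leaf, 1 lower in leaf than in fruit, and 0 in the other 4 pairs, where between 3 and 12 had an unadjusted p under 0.05. Their median was -0.06 in leaf minus fruit and 0 in flower minus fruit.

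The profiles most like nta-miR169b over the 8 libraries, on the log2(value + 1) scale, were those of gma-miR394a-5p_L+1, with a Pearson's r of 0.982, mtr-miR5213-5p_L-3R-1, with 0.971, and mtr-miR5213-5p_R-1_1ss2AG, with 0.874. Over the 211 tested miRNAs outside the family, the median r with nta-miR169b was 0.09 and the upper decile began at 0.662. With sbi-miR169e these were 0.115 and 0.604. The named profiles were picked as the highest of the 211. gma-miR394a-5p_L+1, from a family that targets an F-box gene of the shoot meristem in Arabidopsis, stood at 51.2 and 0 in the root libraries, 17.8 and 41.6 in the leaf libraries, 38.9 and 134.8 in the flower libraries, and 0 in both fruit libraries. Like nta-miR169b it was missing from root 2 and from both fruit libraries, and mtr-miR5213-5p_L-3R-1 was listed at 0 in the same 3 libraries. Its values were low, at 9.96 in root 1 and 8.39 and 3.71 in the leaf libraries. In root 2 and fruit 1, 3 reads would have been 7.62 and 4.19. Its sequence lies wholly within that of mtr-miR5213-5p_R-1_1ss2AG, which held 999 in root 2 and 78.9 and 148 in the fruit libraries. These 2 profiles may therefore not be separate. For sbi-miR169e the closest were ath-miR858b, with 0.951, mtr-miR5213-5p_R-1_1ss2AG, with 0.936, and gma-miR394a-5p_L+1, with 0.854. ath-miR858b, from a family that targets MYB genes of flavonoid synthesis in Arabidopsis, stood at 3138 and 4664 in the flower libraries and was present in fruit, at 308 and 267. The r between nta-miR169b and sbi-miR169e was 0.87. These r values share libraries and depth and are given as a description.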

How the data were processed

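Small RNA was measured in 8 libraries, grouped by the tissue in their titles. Per the labels' protocols, the kit was TruSeq for small RNA, and reads were filtered with ACGT101-miR for adapter dimers, low complexity, repeats and common RNA families. Per the file headers, the deposited values are read counts that the authors normalized, and each was handled as a signal. The formula is not given in the sources, and neither are the build or the versions. The value of 1 read was inferred from steps in low values, within 0.01 of a step, and between 69.8% and 79.4% of the values in a library were whole multiples, so no count model was run.

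The 304 entries were reduced to 270 different sequences under the first name. Values of at least 1 in at least 2 libraries (216 miRNAs) were fitted as log2(value + 1) with limma 3.58.1 in R 4.3.3, with tissue as the only term and a mean-variance trend. P-values were adjusted by Benjamini-Hochberg over the 216 in each comparison. A self-test of the fit on simulated data was run, and its outcome is not given here. Every miR169 sequence was named, and outside the family the 3 tested miRNAs with the highest r with each of the 2 most abundant members. Members, lists and tests were chosen with earlier results of these data known. Depth was stated only for reads assigned to listed miRNAs.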

Additional observations from a re-analysis of the deposited data

How the results depend on the processing

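None of the miR169 forms was called over the 4 tissues or in the 6 tissue pairs as fitted, and the count of calls differed between settings. A pseudocount of 0.5 gave 1 form over the 4 tissues and 1 call in the pairs, limma without the trend gave 1 and 2, and library weights gave 2 and 6. Over all miRNAs those settings called 27 and 55, 12 and 42, and 35 and 66, beside 10 and 48 as fitted. A fit of only the 4 libraries of a pair gave 3 calls, of 66 over all miRNAs. All 3 were in leaf against fruit, for forms that passed the filter there only through the leaf libraries. Leaving out 1 library gave between 0 and 2 forms over the 4 tissues and between 0 and 7 calls in the pairs, all of them without root 1, where the pairs held 166 calls over all miRNAs, or root 2, where they held 111. A pseudocount of 10, no filter, a minimum value of 10, quantile normalization, libraries scaled to a common total and each entry by itself gave 0 calls of miR169 forms, and the pairs then held between 7 and 9 with an unadjusted p under 0.05. None of the 8 differences with an unadjusted p under 0.05 turned its direction under any alternative run. In each of the 8, 1 of the tissues was at 0 in both libraries. A value set against 0 can hardly turn, so the steady direction is no check of these differences. The cause of these changes was not tested. Scaling to a common total moved the summed family value to 74.0 from 59.9 in root and to 99.9 from 124.8 in flower, and moved the median of all miRNAs in flower minus fruit to -0.03 from 0.39.

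With the replicate number as a block (replicate block), 0 forms were called over the 4 tissues and 0 in the pairs, as in the fit without it. Over all miRNAs the block fit called 0 over the 4 tissues and 2 in the pairs, beside 10 and 48. It therefore says little about the forms. The numbers were not taken to pair the libraries: the correlation of same-numbered deviations between tissues ran from -0.197 to 0.238, the last for root with leaf. Over all miRNAs the F test called between 0 and 53 across alternatives, beside 10. Values under that of 3 reads, up to 7.62 in root 2, limit what an absence shows. DESeq2 was not run because the values are not counts.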
